A study of Helianthus annuus with 9 samples.

Results

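The miR397 and miR398 families were followed through 3 stages of seed development in sunflower (Helianthus annuus), by the entries of Type mature or hairpin whose identifier begins with either family name. The rule gave 16 of 8473 small RNA entries, 10 for miR397 and 6 for miR398, each family with as many mature as hairpin entries. Mature and hairpin are the Types as deposited. What sets a hairpin entry apart from the mature entry of the same name is not stated in the labels or the table, so hairpin reads are not read here as precursor levels. Seeds came from the field-grown line L-1-OL-1, which the labels call high in oleic acid and which is the source of every library, with 3 libraries at each of 7, 22 and 37 days. The labels state neither the starting point of the day count nor whether libraries of the same stage stem from different plants, so p-values here cover only the spread among these libraries, which may be technical. The tissue label was not checked against marker genes, since the values are those of small RNAs.

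Plant miRNAs are short RNAs cut from a hairpin precursor that guide an Argonaute protein to matching messenger RNAs, which are then cut or less translated. In Arabidopsis miR397 targets laccases, copper-containing oxidases known for their part in lignin formation, and miR398 targets copper/zinc superoxide dismutases and the chaperone that loads them with copper. Both rise in Arabidopsis when copper is scarce, together with miR408 and miR857, under the transcription factor SPL7.

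The deposited counts of a library summed to 31011803 to 34397084 reads, totals for exons, introns and intergenic sequence included. This sum is called all reads below, and reads without a count are not in it. Of it, 2208822 to 4050364 stood in small RNA entries. Levels are given as CPM, counts scaled to the small RNA reads of the library and corrected by TMM factors (a correction that assumes most entries unchanged), which ran from 0.695 in a day 37 library to 1.41 in a day 7 library. Levels are shares of reads per entry and were not divided by length, since a small RNA is read whole. Whether reads with the same molecular identifier were merged is not stated, so a read need not stand for 1 molecule. Of all small RNA entries, 7221 had enough reads to be tested. A change is the log2 of the later level over the earlier one, with its standard error (SE), tested by edgeR's quasi-likelihood test with Benjamini-Hochberg adjustment over the whole table at a threshold of 0.05. In structural RNA, that is fragments of ribosomal, transfer and similar RNAs, stood 3.30% to 6.61% of the small RNA reads at days 7 and 22 and 14.4% to 22.3% at day 37.

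Nearly all reads of each family stood in 1 entry. For miR397 this was the mature entry miR397a_3, with 91.4% of the family's 5262 reads over the 9 libraries. Its description lists 19 miRNAs of 17 plant species, Arabidopsis miR397a among them. For miR398 it was the mature entry miR398b_3, with 96.0% of 14372 reads, whose description lists a single miRNA, miR398b of peach. No listed miRNA of either family carries the sunflower prefix. The next entries were miR397a_6 mature, listed for flax and Brachypodium, with 5.44% of the miR397 reads, and miR398b_3 hairpin with 3.20% of the miR398 reads.

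The remaining entries were sparse. Of 10 miR397 entries 7 stayed under 10 reads in every library, as did 3 of 6 miR398 entries, and a single miR398 entry outside miR398b_3 went above that. This was miR398a-3p_1 mature, which lists 17 miRNAs of 16 species including the Arabidopsis miR398a-3p and held 0 to 19 reads per library. The filter on low counts left 3 entries of each family in the test, so the counts of calls below cover 6 of 16 entries.

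**Figure D1:**
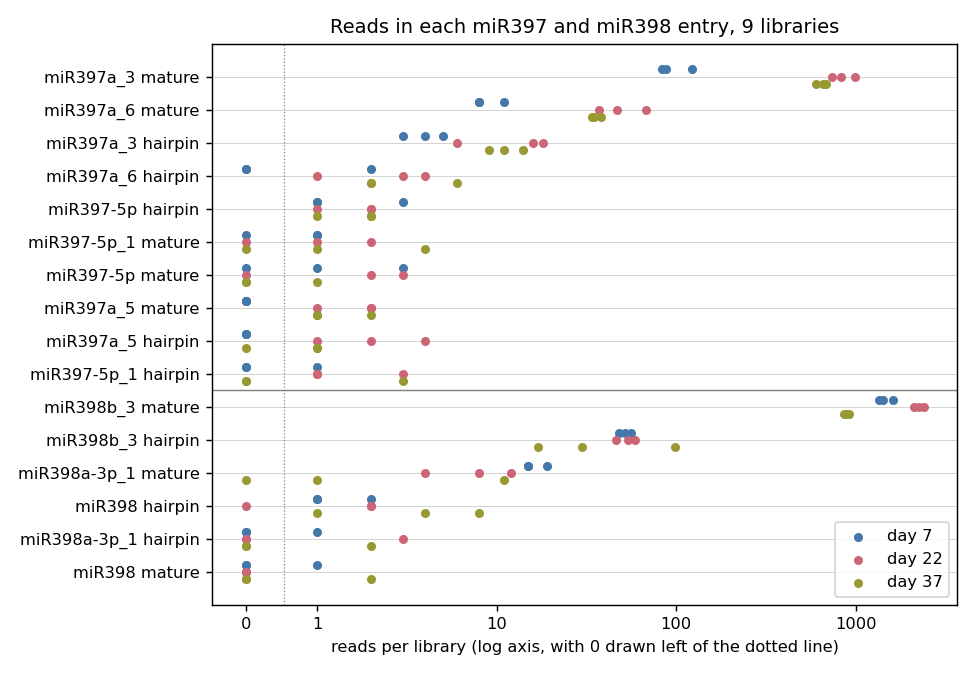
Reads per library (log axis) in each of the 16 entries, with miR397 above the line and miR398 below it. Points are single libraries coloured by day. The miR397a_3 mature entry runs from 83 to 999 reads and the miR398b_3 mature entry from 866 to 2394, while most other entries lie under 10.

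Spreads of 10-fold between libraries of the same day occurred in some known miRNA entries but in no well-covered entry of these families. Over pairs of a day and a known miRNA entry with a mean of at least 10 reads, the highest library of a day exceeded the lowest by at least 10-fold (1 read added to both) in 106 of 519 pairs. For miR397 this was the case in 0 of 7 pairs and for miR398 in 0 of 7, with 2.71-fold and 5.50-fold as their widest spreads. The phosphate-linked family miR399 likewise had 0 of 9 such pairs (widest spread 2.57-fold), so this trait is not particular to miR397 and miR398. For the sulfate family miR395 it was the case in 6 of 6 pairs, so that only its sum is used below.

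The miR397 family was low at day 7 and several-fold higher at both later days. Its summed level was 34.8, 45.9 and 30.8 CPM in the day 7 libraries (37.2 ± 7.83, SD, n = 3). At day 22 it was 255, 251 and 286 CPM (264 ± 19.1, SD, n = 3). At day 37 it was 286, 235 and 234 CPM (252 ± 29.4, SD, n = 3). All libraries of days 22 and 37 lay above all of day 7, and those of day 22 and day 37 overlapped, so the order of the latter pair is not set beyond their spread.

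From day 7 to day 22 the miR397 sum rose by 2.83 on the log2 scale (SE 0.16, edgeR adjusted p = 1.93e-06), beside a median change of -0.02 over the table with families summed, of which 70.6% passed in either direction. From day 7 to day 37 it rose 6.76-fold (log2 2.76, SE 0.16, adjusted p = 7.21e-07), where the table's median was -0.56 and 79.9% passed. Its change from day 22 to day 37 was -0.07 (SE 0.14, adjusted p = 0.787), with 52.0% of the table past the threshold. The known miRNA families did not share the flat median of the table in the first interval. Of 32 tested, 22 were higher at day 22 than at day 7 and 3 lower, and their middle log2 value was 1.09. At day 37, again against day 7, 14 were higher and 10 lower, and this value was 0.17. Counts over known miRNA families, here and below, were made with TMM factors alone and depend on that scaling. With known miRNA totals the median of the whole table with families summed shifted by -0.68 from day 7 to day 22. Among these 32 families, the rise of miR397 took place 4 by day 22 and place 6 from day 7 to day 37.

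The direction of the late miR397 change depended on the scaling. Taken as a share of known miRNA reads, mature and hairpin, the family went from 0.0299% ± 0.00437 at day 7 to 0.138% ± 0.0119 at day 22 and 0.201% ± 0.0444 at day 37 (SD, n = 3), and its log2 change from day 22 to day 37 was then 0.54 (edgeR adjusted p = 0.0248). With library totals alone it was -0.54 (adjusted p = 0.00948). Scaled as CPM to all reads, that is the sum of all deposited counts, the family held 3.58 ± 0.793, 27.8 ± 3.67 and 21.8 ± 1.56 (SD, n = 3). Both rises from day 7 passed under all of these scalings.

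**Figure D2:**
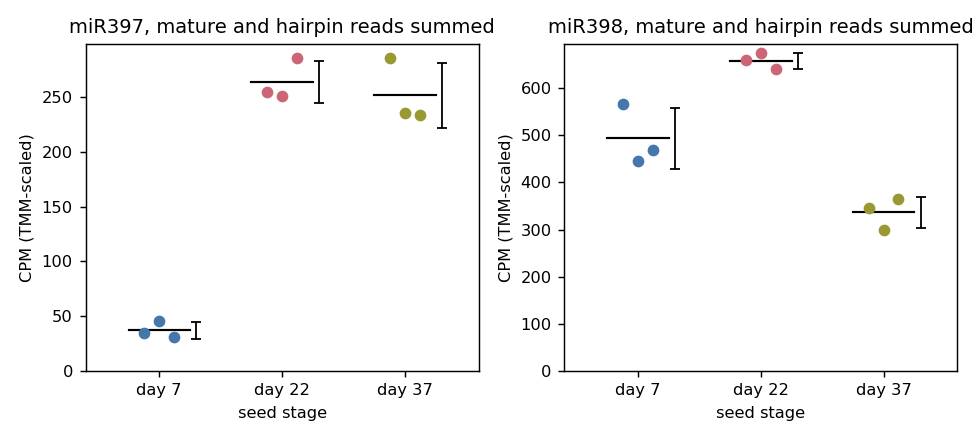
Summed level of the mature and hairpin entries of each family in CPM, by day. Points are the 3 libraries of a day, the line is their mean and the bar their SD. miR397 goes from about 37.2 CPM at day 7 to 264 at day 22 and 252 at day 37, while miR398 is highest at day 22 and lowest at day 37.

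By entry, 3 of 3 tested miR397 entries were higher at day 22 than at day 7, with a median log2 change of 2.28. Of all small RNA entries tested, 35.4% were higher. At day 7 miR397a_3 hairpin had 1.01 to 1.57 CPM and miR397a_6 mature 2.51 to 3.46 CPM. Both passed the filter on low counts only through their higher later days. The count of 3 of 3 is therefore partly set by the filter and is no separate support for the rise. The leading entry, miR397a_3 mature, held 88, 123 and 83 reads at day 7, 827, 742 and 999 at day 22 and 688, 655 and 603 at day 37. It rose 7.68-fold by day 22 (log2 2.94, SE 0.16, edgeR adjusted p = 2.3e-06), and its change from day 22 to day 37 was -0.07 (adjusted p = 0.806).

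The second miR397 entry, miR397a_6 mature, held 8, 11 and 8 reads at day 7, 47, 37 and 68 at day 22 and 38, 34 and 35 at day 37. It rose 4.87-fold by day 22 (log2 2.28, SE 0.26, edgeR adjusted p = 9.44e-05). Per 100 reads of the leading entry it had 8.94 to 9.64 reads at day 7, 4.99 to 6.81 at day 22 and 5.19 to 5.80 at day 37, so its share was highest in all 3 day 7 libraries, where it rests on few reads. The smallest of the tested miR397 entries, miR397a_3 hairpin, went from 3, 4 and 5 reads over 6, 16 and 18 to 9, 11 and 14. It rose by 1.53 on the log2 scale to day 22 (SE 0.49, adjusted p = 0.0219).

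The miR398 family was the more abundant of the pair at every stage, and its changes from day 7 were smaller in size. Its summed level was 567, 446 and 469 CPM at day 7 (494 ± 64.5, SD, n = 3). At day 22 it was 659, 675 and 641 CPM (658 ± 16.9, SD, n = 3). At day 37 it was 347, 299.8 and 364 CPM (337 ± 33.2, SD, n = 3). The days did not overlap on this scale, with day 22 highest and day 37 lowest. Ranked by mean CPM among 39 known miRNA families, miR398 stood at place 15, 16 and 17 on the 3 days and miR397 at 25, 20 and 20.

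From day 22 to day 37 the miR398 sum fell 1.95-fold (log2 -0.97, SE 0.11, edgeR adjusted p = 0.000119), against a table median of -0.15. Of 32 known miRNA families tested, 8 were higher and 12 lower, with a median of -0.18. Ranked from the largest rise, miR398 stood at place 23 of these. This fall passed under every scaling tried, with log2 changes from -1.43 to -0.37. The share of structural RNA also rose between these days, as given above. The log2 change was -1.24 when structural RNA was left out of the library totals.

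The other miR398 changes were less firm. The sum rose by 0.41 from day 7 to day 22 (SE 0.11, edgeR adjusted p = 0.00899), but this change was 0.07 with RLE size factors (adjusted p = 0.586), -0.03 with library totals alone (0.781) and -0.22 when scaled to known miRNA reads (0.155). Without day 7 replicate 2 or 3 it did not pass (log2 0.27 and 0.31, adjusted p = 0.0734 and 0.0633). As a share of known miRNA reads miR398 held 0.449%, 0.339% and 0.414% at day 7 and 0.348%, 0.344% and 0.339% at day 22, which overlap. Between day 7 and day 37 the sum fell by 0.55 (SE 0.11, adjusted p = 0.00166), beside a table median of -0.56, and the change did not pass with upper quartile factors (log2 -0.22, adjusted p = 0.104). Scaled as CPM to all reads the family held 47.5 ± 5.84, 69.2 ± 2.28 and 29.2 ± 2.94 at the 3 days (SD, n = 3). Among the 32 known miRNA families tested, ranked from the largest rise, miR398 stood at place 20 from day 7 to day 22. It stood at place 25 from day 7 to day 37. The median changes of these families, 1.09 and 0.17, were both above those of miR398.

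**Figure D3:**
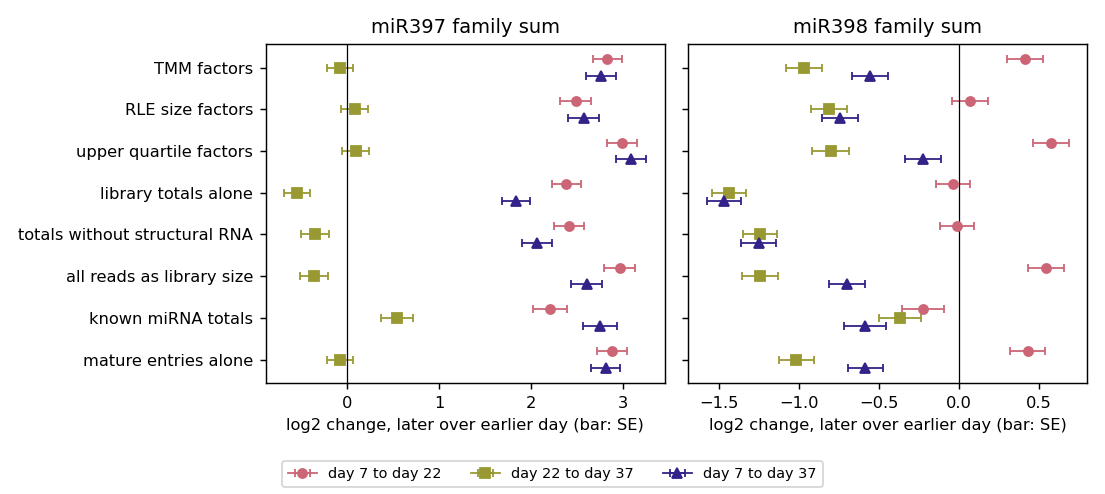
Log2 change of each family sum (horizontal axis, later over earlier day, bars are SE) under 8 ways of scaling or summing the reads (vertical axis). The rises of miR397 from day 7 and the fall of miR398 from day 22 to day 37 keep their side of 0 in every line, whereas the miR397 change from day 22 to day 37 and the miR398 change from day 7 to day 22 cross it.

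Among miR398 entries, 1 of 3 tested was higher at day 22 and 0 were lower, and 1 of 3 was lower at day 37 than at day 22, always miR398b_3 mature. Over both families 4 of 6 tested entries were higher at day 22 than at day 7 and 0 lower, where 35.4% of all small RNA entries tested were higher and 34.2% lower. As given above, miR397a_3 hairpin and miR397a_6 mature passed the filter through their later days. Counts of entries higher than at day 7 are thus partly set by the filter. Likewise miR398a-3p_1 mature passed it only through day 7, its highest day (4.72 to 5.97 CPM). Counts of entries lower than at day 7 are therefore partly set by the filter too. The count of 4 was 2 with RLE size factors, library totals alone, known miRNA totals, totals without structural RNA or DESeq2, and 2 without day 7 replicate 2. From day 22 to day 37 it was 0 higher and 1 lower of 6, against 19.1% and 32.1%. From day 7 to day 37 it was 3 higher and 1 lower of 6, against 33.6% and 45.4%. The counts of 0 lower from day 7 to day 22 and 0 higher from day 22 to day 37 stayed 0 at an unadjusted p under 0.05 in edgeR. They were also 0 at an adjusted p under 0.05 in DESeq2 and in limma. Neither held in every setting. The first was 1 when the 2 days were fitted alone, and the second was 1 with known miRNA totals.

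The miR398b_3 mature entry held 1610, 1353 and 1416 reads at day 7, 2246, 2112 and 2394 at day 22 and 881, 866 and 919 at day 37. It fell 2.02-fold from day 22 to day 37 (log2 -1.02, SE 0.11, edgeR adjusted p = 0.000106). Its hairpin entry, miR398b_3 hairpin, held 52, 48 and 56 reads, then 46, 54 and 59, then 17, 30 and 98. The 98 reads stood in day 37 replicate 3, above every other library, while the other two day 37 libraries lay below all of days 7 and 22.

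In that library hairpin entries made up 9.78% of the miR398 reads (95% Wilson interval 8.11% to 11.7%), against 2.33% (1.53% to 3.53%) and 4.20% (3.08% to 5.72%) in the other day 37 libraries. The intervals cover counting error only. Over all known miRNAs the hairpin share of that library was 17.6%, against 19.9% and 19.2% in the other two. With all libraries the hairpin entry's change from day 22 to day 37 was 0.18 (edgeR adjusted p = 0.899); without day 37 replicate 3 it was -0.86 (adjusted p = 0.0197), and from day 7 to day 37 it was -1.01 (adjusted p = 0.00568) in place of 0.03. The entry miR398a-3p_1 mature, with 15, 15 and 19 reads at day 7, held 8, 4 and 12 at day 22 and 1, 0 and 11 at day 37, the 11 again in replicate 3. In CPM all its day 22 and day 37 libraries lay below all of day 7. The entry passed the filter on low counts only through day 7, so this separation is partly set by the filter. It passed in none of the 3 comparisons (log2 -1.22, -0.63 and -1.86 with SE 1.04, 1.07 and 1.08; adjusted p = 0.316, 0.720 and 0.144), and the 0 of day 37 replicate 2 allows up to 3 reads.

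The ratio of the families within a library needs no scaling between libraries. There were 0.0619, 0.104 and 0.0662 miR397 reads per miR398 read at day 7 (1 read added to both sums), 0.387, 0.372 and 0.446 at day 22 and 0.824, 0.785 and 0.643 at day 37. The days did not overlap and the ratio was higher at each later stage. The mean log2 ratio was higher by 2.41 at day 22 than at day 7 and by 0.90 at day 37 than at day 22. It was higher by 3.31 at day 37 than at day 7. Each value is a difference between means of 3 libraries per day, which are not paired. The exact two-sided permutation p was 0.1 for each of the 3 comparisons, the smallest that 3 against 3 libraries allow, and 0.1 after Benjamini-Hochberg adjustment, so none could pass 0.05.

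**Figure D4:**
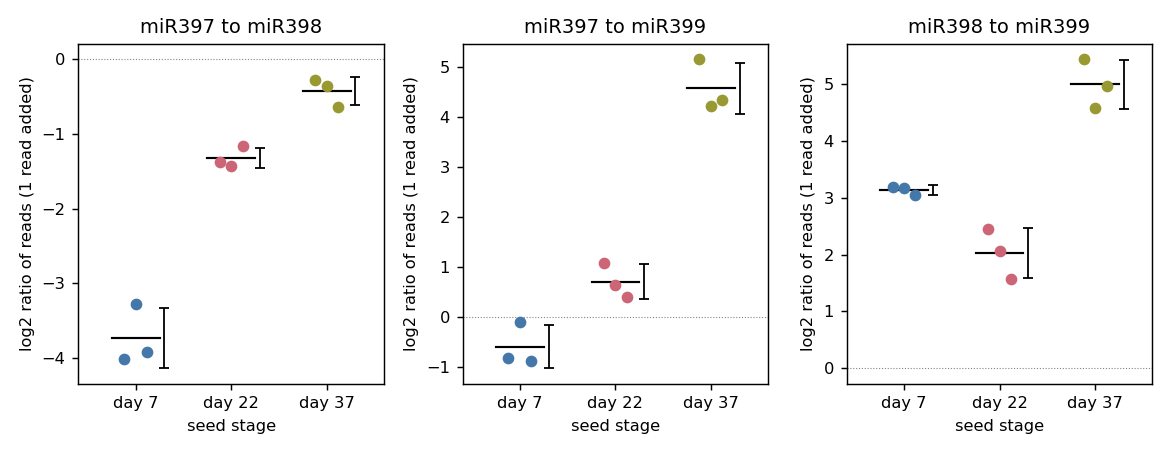
Log2 ratio of summed reads between families in each library, by day, with 1 read added to both sums; the line is the mean of 3 libraries and the bar their SD. The ratio of miR397 to miR398 goes up at each stage. The ratios of both families to miR399 go up between day 22 and day 37, where miR399 itself fell from 166 to 10.4 CPM.

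Further families were looked up by name for comparison, as copper-linked or nutrient-linked. For miR408, miR857, miR1444 and miR1863 there were 0 entries of Type mature or hairpin. The phosphate-linked miR827 and miR2111 also had 0, and none of these families was analysed here. Whether miR1863 belongs to the copper response was not checked. Of the 2 other nutrient families with entries, miR399, which targets a ubiquitin-conjugating enzyme that limits phosphate uptake, was higher at day 22 than at day 7 (56.0 ± 6.28 to 166 ± 48.3 CPM) and lower at day 37 (10.4 ± 2.42 CPM, SD, n = 3). The sulfate family miR395 stood at 38.2 ± 8.65, 39.1 ± 7.31 and 28.0 ± 9.53 CPM and passed in none of the 3 comparisons (edgeR adjusted p = 0.913, 0.177 and 0.163).

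Against miR399 the log2 ratio of miR397 was higher by 1.31 at day 22 than at day 7 and by 3.86 at day 37 than at day 22. The ratio of miR398 to miR399 was lower at day 22 than at day 7 (difference -1.11) and higher by 2.97 at day 37 than at day 22. Against miR395 the ratio of miR397 was higher by 2.79 at day 22 and by 0.45 more at day 37. For each of these the libraries did not overlap and the exact two-sided permutation p was 0.1, or 0.133 adjusted over 12 comparisons. The ratio of miR398 to miR395 overlapped in all 3 comparisons, with differences of 0.38, -0.45 and -0.07 (exact permutation p = 0.3, 0.2 and 0.9).

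By the correlation of log2(CPM + 1) over the 9 libraries, the families most like miR397 among 28 others with a mean of at least 10 CPM were miR171, which targets GRAS factors (Pearson r = 0.986), miR3630 (0.977) and miR156, which targets SPL factors (0.973). Their mean levels at days 7, 22 and 37 were 1274, 4891 and 5631 CPM for miR171, 28.6, 178 and 235 CPM for miR3630, and 533, 6521 and 10231 CPM for miR156. Those most like miR398 were miR164, which targets NAC factors (0.970), miR399 (0.948) and miR403, which targets the Argonaute AGO2 (0.939). Mean levels here were 3136, 7283 and 951 CPM for miR164 and 346, 943 and 203 CPM for miR403. The points share their libraries, scaling and 3 stages, and the values describe likeness only.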

How the data were processed

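Small RNA of 18 to 30 nt was sequenced with adapters that carry molecular identifiers, per the labels' protocols; Bowtie2 is named in the submitters' processing notes without a role. Build, counting tool and filters were not given in the sources used here. Counts as deposited are whole-number reads per entry, with no normalization per the file headers. A further deposited column headed TPM nearly equals the counts (ratio 0.964 to 1 for these entries) and was treated as a score and used only as an alternative. Lists of predicted small RNAs were not used.

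Totals for exons, introns and intergenic sequence were left out. Counts were fitted with edgeR 4.0.16 (R 4.3.3), TMM factors and filterByExpr, 1 mean per day over 9 libraries; SEs follow from the log2 change and its F value. For family sums, the entries of each known miRNA number were replaced by their sum (7059 features tested, 7221 entries in the entry fit). Every entry found by the rule is listed, and those with a mean of at least 10 CPM are described by library. The fit was tested on simulated data in which most entries were unchanged and rises and falls were balanced. In the real data 69.6% of entries passed from day 7 to day 22, so that test does not cover the scaling used here. The members and lists were chosen with earlier results of these data known. Alternatives were RLE and upper quartile factors, totals alone, known miRNA totals, all reads, other filters, DESeq2 1.42.0, limma 3.58.1, mature entries alone, 2 days alone, the replicate number as a block and leaving out each library; totals without structural RNA were added after seeing the data. No 2 libraries of a day were identical (Pearson r of log2 reads 0.936 to 0.959).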

Additional observations from a re-analysis of the deposited data

How the results depend on the processing

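Both rises of the miR397 sum from day 7 and the fall of the miR398 sum from day 22 to day 37 kept their direction and their side of the threshold under each of 14 alternatives and without any library, with log2 changes of 2.20 to 2.99, 1.84 to 3.08 and -1.43 to -0.37 over the alternatives. The miR397 sum from day 22 to day 37 (-0.07) stood at 0.084 with RLE size factors, 0.098 with upper quartile factors, 0.084 in DESeq2, 0.54 with known miRNA totals and -0.54 with library totals alone, and at -0.17 to 0.016 without each library. The leading entry miR397a_3 mature did the same, at 0.086, 0.10, 0.085, 0.55 and -0.54 under these settings in turn and -0.17 to 0.0086 without each library. The miR398 sum from day 7 to day 22 (0.41) stood at 0.071 with RLE size factors, 0.072 in DESeq2, -0.034 with library totals alone, -0.22 with known miRNA totals and -0.0078 with totals without structural RNA, and at 0.27 to 0.45 without each library. The entry miR398b_3 mature stood at -0.0066 with library totals alone and -0.19 with known miRNA totals. The miR398 sum from day 7 to day 37 was -0.22 with upper quartile factors. The cause was not tested. These scalings also shifted the median of all entries, by -0.67 (known miRNA totals) to 0.13 (upper quartile) in the first interval and by -0.96 (library totals) to 0.33 (upper quartile) over the whole period. The share of rises among all calls from day 22 to day 37 was 37.3%, but 60.1% with known miRNA totals and 23.7% with library totals alone.

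The entry miR398b_3 hairpin passed in no comparison with all libraries and changed sign with the setting. From day 7 to day 22 it was 0.011 with upper quartile factors. From day 22 to day 37 (0.18) it was -0.28 with library totals, -0.084 with all reads, -0.11 with totals without structural RNA, -0.18 in limma, -0.18 with the column headed TPM and -0.039 with the replicate block, and -0.86 to 0.55 without each library. Over the whole period, day 7 to day 37 (0.03), it was -0.16 with RLE factors, -0.88 with library totals, -0.089 with known miRNA totals, -0.10 with all reads, -0.68 with totals without structural RNA, -0.16 in DESeq2, -0.32 in limma, -0.32 with the column headed TPM, -0.094 with the 2 days alone and -0.19 with the replicate block, and -1.01 to 0.40 without each library.

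Entries higher at day 22 than at day 7 numbered 2 in place of 4 with RLE factors, library totals, known miRNA totals, totals without structural RNA and DESeq2, and 2 to 4 without each library, with 1 lower when the 2 days were fitted alone. From day 22 to day 37, 1 was higher with known miRNA totals, 2 were lower with library totals, and 1 to 3 were lower without each library, the 3 being without day 37 replicate 3. Between day 7 and day 37, 0 were lower with upper quartile factors, 2 with library totals, limma and the column headed TPM, and 1 to 3 without each library, the 3 again without day 37 replicate 3. The ratios between families kept their direction under the other settings tried; without single libraries, all did but that of miR398 to miR395 from day 7 to day 37 (-0.30 to 0.13). The replicate numbers are not known to pair the libraries: deviations of same-numbered libraries correlated at -0.05 to 0.18, and 3 of 9 libraries correlated best with their own number. With the number as a block the miR397 and miR398 sums changed by 2.83 and 0.42 in the first interval, by -0.07 and -0.97 in the second and by 2.76 and -0.55 over the whole period, with every call of a sum as before. Entries under 10 reads per library are too shallow to show a change of their own.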

Other observations

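The table also holds Rfam precursor models for these families, which are of another Type and lie outside the rule. The model for MIR397 held 1 read over the 9 libraries and the model for MIR398 held 7. The model for MIR408, a further copper-linked family, held 7 reads, with 3 and 3 in day 22 replicates 1 and 2 and 1 in day 7 replicate 1.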
